A study of Sus scrofa with 12 samples.

Results

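The genes described here are 10 markers and regulators of mesenchymal transition, chosen by name: the transcription factors SNAI1, SNAI2, TWIST1, ZEB1 and ZEB2, the adhesion molecule CDH2, the growth factor receptors PDGFRA and PDGFRB, the intermediate filament gene VIM and the matrix gene TGFBI. Of these, 8 could be paired with a row of the deposited table of 21153 pig genes, and TWIST1 and ZEB2 were not analysed here. RNA was sequenced from 12 cultures of primary endothelial cells (ECs) from arteries of 8-month-old pigs, from 3 donors that carry replicate numbers 1 to 3. The cells had been exposed for 48 h to laminar shear stress of 2 dyne/cm2 (low aneurysmal), 80 dyne/cm2 (supra-high aneurysmal) or 30 dyne/cm2 (physiological), the last in a pair of control sets, here called set 1 and set 2 as the labels number them. Each of these groups holds 1 culture per donor, and all were unmodified cells grown in the same medium with fetal calf serum and heparin. The arteries are aortic by the labels and coronary by the methods. In the submitters' design text, the low shear stress and its own physiological control were run in another flow slide and at a lower seeding density than the supra-high shear stress and its control. It does not say which numbered set belongs to which. Here 2 dyne/cm2 was compared with set 1 and 80 dyne/cm2 with set 2, always within a donor.

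In endothelial-to-mesenchymal transition, ECs lose adhesion and junction genes of the endothelium and gain genes of mesenchymal cells, such as matrix proteins and receptors for platelet-derived growth factor. SNAI1, SNAI2, ZEB1, ZEB2 and TWIST1 encode transcription factors that act in this programme, which transforming growth factor beta (TGF-beta) can start, and it is known from heart valve formation and from vessels under disturbed flow. VIM and ZEB1 are also expressed by ECs that have not undergone transition, so their presence alone does not mark it.

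The libraries held between 29606854 and 41058902 reads on genes (median 33871914). Values are given as CPM, read counts scaled to the size of each library with the TMM factors of edgeR, and 3 counts correspond to no more than 0.101 CPM in any library. Genes entered a test where 3 or more of the 6 libraries reached 1 CPM. They were called when the change was 2-fold or more and the p adjusted over all genes tested (Benjamini-Hochberg) was under 0.05 in edgeR's quasi-likelihood test with the donor as a term. SE stands for standard error. The fibronectin gene FN1 took 0.951% to 1.15% of the reads at 80 dyne/cm2 and 5.22% or more at 2 dyne/cm2. Levels are not compared between genes, since exon lengths were not used here. In these bulk samples, fewer cells that express a gene and less RNA of that gene per cell cannot be told apart.

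At 2 vs. 30 dyne/cm2, the receptors PDGFRA and PDGFRB and the matrix gene TGFBI were up-regulated, and the transcription factor SNAI1 was down-regulated. These were 4 of the 6 members that could be tested, against 9.6% of all 11226 genes tested (5.06% higher and 4.54% lower). PDGFRB is among these 4 but passed the filter mainly through the group where it was high, so this count cannot be read against that share. With at least 10 counts required in every library PDGFRB was not tested, and 3 members were called. VIM had lower values at 2 dyne/cm2 in every donor without passing the test, and ZEB1 stayed near its control values. At 80 vs. 30 dyne/cm2, 0 of 5 tested members were called, against 2.2% of 11187 genes, while PDGFRA, low at 80 dyne/cm2, and SNAI2 were left untested by the filter. Of the 11187 genes, 929 had an unadjusted p under 0.05 without the donor term and 2921 with it. DESeq2 with the donor term also called 0 members at 80 dyne/cm2. By direction, 1.14% of genes were called higher and 1.05% lower there. The groups at 80 dyne/cm2 and in set 2 overlapped for all 7 members with reads, while 8.63% of genes were higher and 6.29% lower without overlap. Being higher in each donor at 80 dyne/cm2 was true of 25.1% of genes and being lower in each donor of 24.2%. The calls at 2 dyne/cm2 rest on comparing within donors: without the donor term (replicate block) 0 members were called, with adjusted p = 0.0971 for SNAI1, 0.0949 for PDGFRA, 0.116 for PDGFRB and 0.150 for TGFBI.

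**Figure D1:**
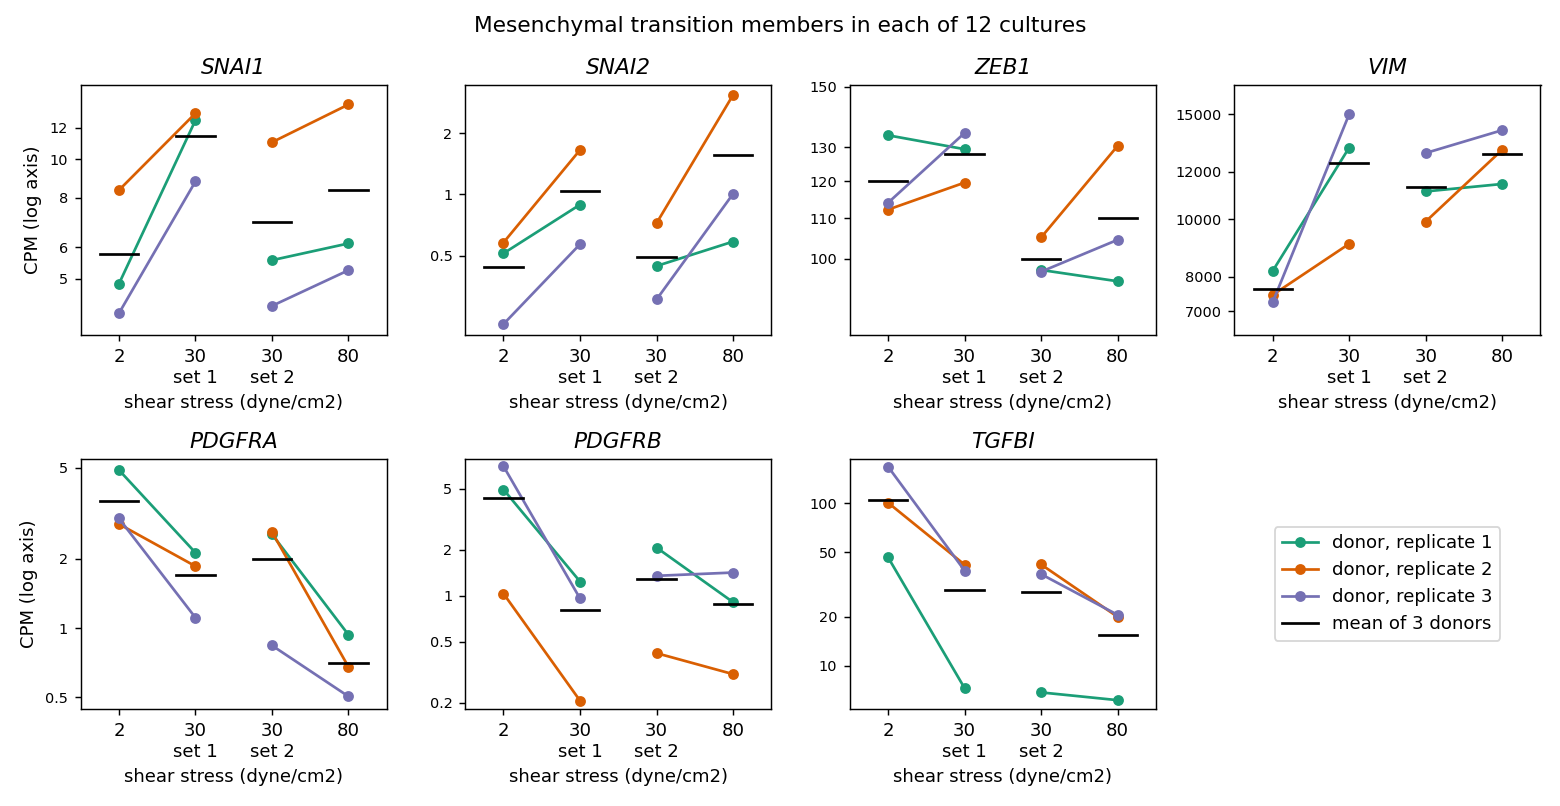
CPM of the 7 members with reads in every library (vertical log axes, different for each gene) at 2, 30 (set 1 and set 2) and 80 dyne/cm2. Each point is 1 culture, coloured lines join the cultures of a donor that were compared, and black bars are means of 3 donors; TGFBI lies between 46.6 and 168 CPM at 2 dyne/cm2, above every other culture, while SNAI1 lies lower in set 2 than in set 1 in each donor.

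Among the transcription factors, SNAI1 (ENSSSCG00000032613, chromosome 17, 51546446 to 51552498), which encodes the repressor Snail, was the member that fell at 2 dyne/cm2. Its levels were 4.86, 8.36 and 4.09 CPM at 2 dyne/cm2 in replicates 1, 2 and 3, and 12.5, 13.045 and 8.79 CPM in set 1. All 3 cultures at 2 dyne/cm2 lay below all 3 of set 1, as for 19.9% of the genes tested, and replicate 3 was lowest in both groups. The means were 5.77 ± 2.27 and 11.5 ± 2.32 CPM (SD, n = 3), and the log2 fold change was -1.02 (SE 0.18, adjusted p = 0.0195). In the donors the level at 2 dyne/cm2 was 0.388, 0.641 and 0.466 times that of set 1. In set 2, SNAI1 had 5.57, 11.03 and 4.27 CPM, and at 80 dyne/cm2 it had 6.14, 13.7 and 5.26 CPM. These groups overlap, although each donor was 1.10 to 1.24 times higher at 80 dyne/cm2. SNAI1 had a log2 fold change of 0.25 there (SE 0.12, adjusted p = 0.251), and 2 standard errors on either side span 0.00 to 0.50.

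The call on SNAI1 depends on the control set. Against set 2, the log2 fold change of SNAI1 at 2 dyne/cm2 was -0.22 (adjusted p = 0.259), and against both sets together it was -0.69 (adjusted p = 0.109). SNAI1 was lower in set 2 than in set 1 in 3 of 3 donors, with a log2 difference of -0.80 (SE 0.20, adjusted p = 0.149). At 80 dyne/cm2 the sign turned, to -0.56 against set 1 (adjusted p = 0.359). Without replicate 1 the adjusted p at 2 dyne/cm2 was 0.0677, and without replicate 3 it was 0.0584, so the call on SNAI1 was lost in both cases.

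SNAI2 (ENSSSCG00000039568, chromosome 4, 79264880 to 79268475), which encodes the related repressor Slug, lay near the detection limit, with 7 to 100 counts per library. It had 0.514, 0.581 and 0.231 CPM at 2 dyne/cm2, against 0.891, 1.65 and 0.570 CPM in set 1. Each donor was lower at 2 dyne/cm2, and the groups overlap. SNAI2 had 0.446, 0.723 and 0.305 CPM in set 2, and 0.587, 3.08 and 1.01 CPM at 80 dyne/cm2. Replicate 2 stands out at 80 dyne/cm2, with 100 counts and a 95% counting interval (exact Clopper-Pearson) of 2.50 to 3.74 CPM. The lowest value, 7 counts in replicate 3 at 2 dyne/cm2, has an interval of 0.0929 to 0.476 CPM, and such intervals cover counting error only.

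SNAI2 did not pass the filter in either comparison. In fits with no filter, its log2 fold change was -1.19 at 2 dyne/cm2 (SE 0.32, adjusted p = 0.0566) and 1.49 at 80 dyne/cm2 (SE 0.35, adjusted p = 0.0198). The ratio to the control of the same donor was 1.32, 4.26 and 3.30 at 80 dyne/cm2. That call on SNAI2 did not hold without replicate 2 (log2 fold change 1.05, adjusted p = 0.334), without replicate 3 (1.41, adjusted p = 0.214), without the replicate block (1.65, adjusted p = 0.812) or against set 1 (0.40, adjusted p = 0.785). As with SNAI1, the level of SNAI2 was lower in set 2 than in set 1 in 3 of 3 donors, by -1.04 on the log2 scale in the fit with no filter (SE 0.29, adjusted p = 0.144).

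ZEB1 (ENSSSCG00000011025, chromosome 10, 42013114 to 42216139), a zinc finger repressor of adhesion genes, had 134, 112 and 114 CPM at 2 dyne/cm2 and 129, 119.6 and 134 CPM in set 1. It had 97.3, 105 and 96.9 CPM in set 2, and 94.8, 130.5 and 105 CPM at 80 dyne/cm2. The groups overlap in both comparisons, and replicates went in both directions. Its log2 fold change was -0.08 at 2 dyne/cm2 (SE 0.09, adjusted p = 0.536) and 0.12 at 80 dyne/cm2 (SE 0.09, adjusted p = 0.440). The range of 2 standard errors was -0.26 to 0.10 and -0.06 to 0.31. A change of ZEB1 by 2-fold lies outside both ranges, but the sign depends on the control set, being 0.27 at 2 dyne/cm2 against set 2 and -0.23 at 80 dyne/cm2 against set 1. All values of ZEB1 in set 2 lay below all values in set 1, with a log2 difference of -0.35 (SE 0.08, adjusted p = 0.134), and the same is true of 5.46% of all genes tested.

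CDH2 (ENSSSCG00000003722, chromosome 6, 112396713 to 112629073) encodes N-cadherin, which is used as a marker of mesenchymal cells. It had 0 counts in 11 libraries and 1 count in replicate 2 at 80 dyne/cm2. A count of 0 allows a level of up to 0.0731 to 0.101 CPM, depending on the library, so CDH2 was not detectable at this depth in any group and no fold change is given. Whether the gene model of this row limits its counts was not tested.

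The receptor genes were higher at 2 dyne/cm2. PDGFRA (ENSSSCG00000008841, chromosome 8, 40966568 to 41021440) encodes the alpha receptor for platelet-derived growth factor, best known from fibroblasts and other mesenchymal cells. It had 4.88, 2.84 and 3.004 CPM at 2 dyne/cm2 and 2.13, 1.86 and 1.11 CPM in set 1. Every culture at 2 dyne/cm2 lay above every culture of set 1, as for 17.9% of the genes tested. PDGFRA had a log2 fold change of 1.09 (SE 0.23, adjusted p = 0.0300), and the donors were 2.29, 1.53 and 2.71 times higher. This call was lost without replicate 1 (adjusted p = 0.114), without replicate 3 (adjusted p = 0.0827) and against set 2 (log2 fold change 0.92, adjusted p = 0.116).

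At 80 dyne/cm2, PDGFRA had 0.934, 0.677 and 0.504 CPM, against 2.56, 2.62 and 0.840 CPM in set 2. Each donor was lower at 80 dyne/cm2, at 0.365, 0.258 and 0.600 times its control, and the groups overlap because set 2 of replicate 3 was low. With 16 to 35 counts per library at 80 dyne/cm2, PDGFRA did not pass the filter. In the fit with no filter its log2 fold change was -1.45 (SE 0.28, adjusted p = 0.00678), past both thresholds. That value for PDGFRA was -1.18 without replicate 2 (adjusted p = 0.0872), -1.51 without the replicate block (adjusted p = 0.776) and -1.27 against set 1 (adjusted p = 0.0815).

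PDGFRB (ENSSSCG00000022741, chromosome 2, 151155753 to 151192818) encodes the beta receptor, which pericytes and smooth muscle cells carry. It had 4.93, 1.03 and 6.999 CPM at 2 dyne/cm2 and 1.24, 0.207 and 0.960 CPM in set 1. The groups overlap through replicate 2, whose level at 2 dyne/cm2 was under that of replicate 1 in set 1, but within donors the level was 3.98, 5.00 and 7.29 times higher. PDGFRB changed by 2.41 on the log2 scale (SE 0.26, adjusted p = 0.00758), larger in size than that of 98.1% of the genes tested. PDGFRB passed the filter through its 3 libraries at 2 dyne/cm2 and 1 of set 1, so it was tested because it was high there. Against set 2 it was also called, while without replicate 1 it no longer passed the filter.

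In set 2, PDGFRB had 2.06, 0.422 and 1.35 CPM, and at 80 dyne/cm2 it had 0.907, 0.308 and 1.42 CPM. Replicates 1 and 2 were lower at 80 dyne/cm2 and replicate 3 was not, and the groups overlap. For PDGFRB this gave a log2 fold change of -0.54 (SE 0.32, adjusted p = 0.328), and 2 standard errors on either side span -1.18 to 0.10. Its counts were 7 to 74 in the libraries at 30 and 80 dyne/cm2, close to the detection limit.

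VIM (ENSSSCG00000011033, chromosome 10, 43516441 to 43526172) encodes vimentin, the intermediate filament protein of both mesenchymal cells and ECs, and took 0.691% to 1.47% of all reads. It had 8178, 7456 and 7244 CPM at 2 dyne/cm2 and 13184.5, 9087 and 15001.5 CPM in set 1. All cultures at 2 dyne/cm2 lay below all of set 1, as for 19.9% of the genes tested. The donors were at 0.620, 0.820 and 0.483 times their controls, and 34.3% of genes were lower in each donor. VIM had a log2 fold change of -0.66 (SE 0.22, adjusted p = 0.0836), so the difference passed neither threshold. VIM had 11128, 9904 and 12910.4 CPM in set 2, and 11454, 13075 and 14104 CPM at 80 dyne/cm2. These groups overlap, with a log2 fold change of 0.19 (SE 0.17, adjusted p = 0.525).

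TGFBI (ENSSSCG00000014316, chromosome 2, 138191793 to 138225373) encodes a secreted matrix protein that TGF-beta induces and integrins bind. It had 46.6, 101 and 168 CPM at 2 dyne/cm2 and 7.28, 41.9 and 38.6 CPM in set 1. Every culture at 2 dyne/cm2 lay above every control, as for 17.9% of the genes tested, and 31.6% were higher in each donor. Within donors the level of TGFBI was 6.40, 2.41 and 4.37 times higher, and replicate 1, the lowest at each shear stress, had the largest ratio. The log2 fold change was 2.03 (SE 0.28, adjusted p = 0.0119), and TGFBI was the member that was called at 2 dyne/cm2 without each of the 3 replicates in turn and with either control set.

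In set 2, TGFBI had 6.85, 42.1 and 36.7 CPM, and at 80 dyne/cm2 it had 6.14, 20.01 and 20.6 CPM. Each donor was lower at 80 dyne/cm2, at 0.896, 0.476 and 0.561 times its control, and replicate 1, already low, differed least. The log2 fold change of TGFBI was -0.73 (SE 0.17, adjusted p = 0.0409), past the threshold for p but smaller than 2-fold. Its controls were close to each other, with ratios of set 2 to set 1 of 0.941, 1.003 and 0.9505 in the donors.

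The responses at 2 and 80 dyne/cm2 were compared directly, as the change at 80 dyne/cm2 minus the change at 2 dyne/cm2 in 1 model of 12 libraries. Of 6 members tested, 5 differed (adjusted p under 0.05), against 37.1% of 11568 genes. The difference was -2.80 for TGFBI (log2, SE 0.36, adjusted p = 0.000474), -2.96 for PDGFRB (SE 0.42, adjusted p = 0.000774) and -2.58 for PDGFRA (SE 0.41, adjusted p = 0.00136). The difference was positive for SNAI1, at 1.29 (SE 0.27, adjusted p = 0.00549), and for VIM, at 0.85 (SE 0.24, adjusted p = 0.0228). ZEB1 had a difference of 0.20 (SE 0.17, adjusted p = 0.386), with 2 standard errors spanning -0.14 to 0.54. Without the donor term (replicate block) the difference was called for PDGFRA, while the adjusted p was 0.231 for SNAI1, 0.131 for PDGFRB, 0.0577 for VIM and 0.140 for TGFBI. The call on SNAI1 was also lost without replicate 3 (adjusted p = 0.0689), and that on VIM without replicate 1 (0.118) or replicate 3 (0.171). The slide, the seeding density and the control set change together with the level of shear stress in this contrast, and their part in it cannot be told apart.

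Between the control sets themselves, 0 of 6 tested members were called, against 0.00896% of 11163 genes, which is 1 gene. DESeq2 also called 0 of these members, since none reached 2-fold with an adjusted p under 0.05. Its adjusted p was 0.0219 for SNAI1 (log2 difference -0.81) and 0.0327 for ZEB1 (-0.35), and over 0.05 for PDGFRA, VIM and TGFBI. In the edgeR fit with the donor term, 2146 genes had an unadjusted p under 0.05. PDGFRB was higher in set 2 in each donor, at 1.66, 2.04 and 1.405 times set 1 (log2 difference 0.69, SE 0.23, adjusted p = 0.207). Of all genes tested, 21.2% were higher and 22.8% lower in set 2 in each donor, and 4.63% were higher without overlap. The differences of PDGFRA (0.18), VIM (-0.10) and TGFBI (-0.04) were smaller than those of SNAI1, PDGFRB and ZEB1.

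**Figure D2:**
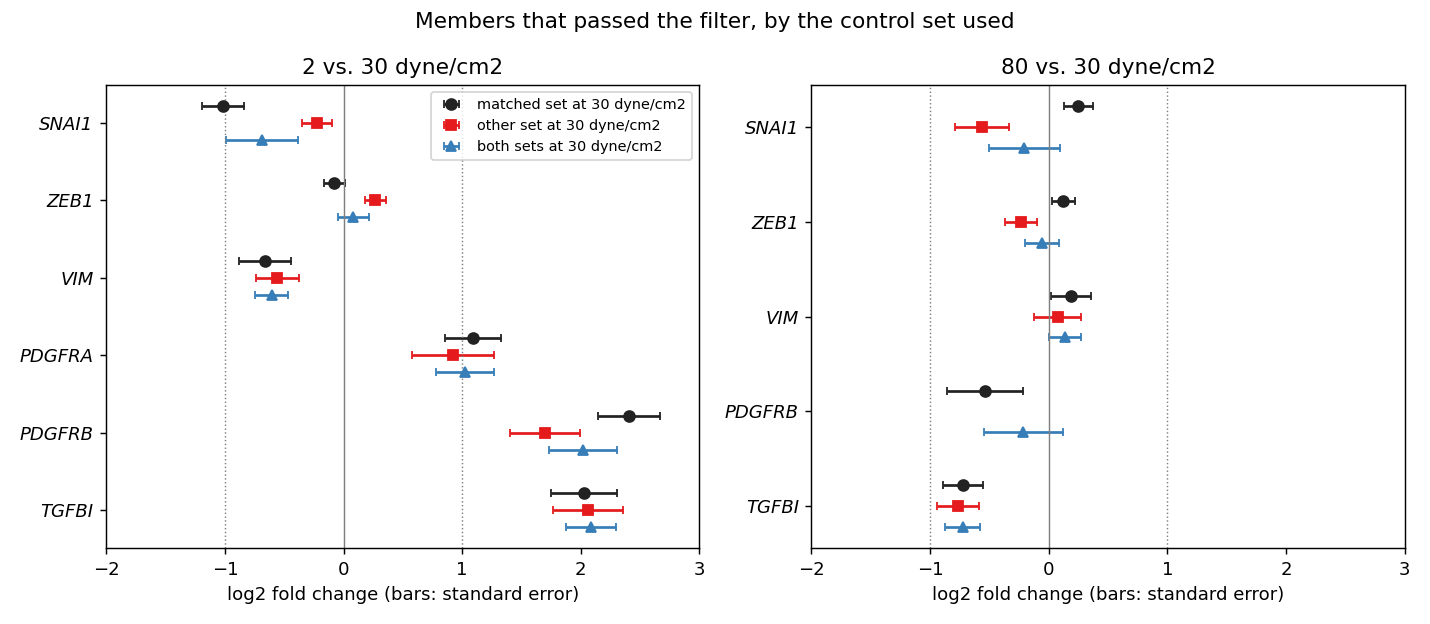
Log2 fold changes of the tested members at 2 vs. 30 dyne/cm2 (left) and 80 vs. 30 dyne/cm2 (right), with the donor as a term, against the matched set, the other set and both sets at 30 dyne/cm2. Bars are standard errors and dotted lines mark a 2-fold change; SNAI1 at 2 dyne/cm2 moves from -1.02 to -0.22 with the other set, whereas TGFBI stays near 2, and PDGFRB did not pass the filter at 80 dyne/cm2 with the other set.

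Donors differed in these genes as well as conditions. The share of the variance of log2(CPM + 0.5) that lay between donors was 53.0% for SNAI1, 44.6% for TGFBI and 44.1% for PDGFRB, against a median of 30.9% over 11267 genes. The condition here has 4 levels, with the control sets counted apart, so its share includes their difference and is not that of shear stress alone. It accounted for most of the variance of PDGFRA (73.2%) and VIM (71.4%), against a median of 42% over all genes. ZEB1 had 2.18% for the donor and 55.7% for the condition. Its highest and lowest group means were those of the control sets, 128 CPM in set 1 and 99.8 CPM in set 2. Replicate 2 had the highest SNAI1 and SNAI2 levels and the lowest PDGFRB level in 4 of 4 conditions. The ratio of the highest to the lowest donor within a condition was 4.60 to 6.78 for PDGFRB, 3.35 to 6.14 for TGFBI, and 1.08 to 1.38 for ZEB1.

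Members also varied together over the 12 libraries once each donor's mean was removed. These correlations are descriptions of libraries that share donors and conditions. Pearson's r was 0.90 between PDGFRA and TGFBI, 0.88 between PDGFRB and TGFBI and 0.82 between PDGFRA and PDGFRB. VIM ran opposite to all of them, with r of -0.82 to PDGFRA, -0.88 to PDGFRB and -0.91 to TGFBI. SNAI1 had r of 0.58 to SNAI2 and 0.69 to VIM, and ZEB1 had r between 0.04 (VIM) and 0.53 (SNAI1). Among 9912 genes compared in the same way, the genes most like TGFBI were SMS (0.99), MMUT (0.98) and MASP1 (0.98), and those most like PDGFRB were WWC2 (0.99), RNF41 (0.99) and HS3ST5 (0.98). For SNAI1 they were CHSY1 (0.96), TGIF1 (0.96) and LRRC8C (0.95), for VIM they were TNS1, PLXNA2 and STARD8 (0.98 each), and for ZEB1 they were TFG (0.90), ARHGAP1 (0.90) and PAPPA (0.89).

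Other genes of the transition were taken as lists. Of 12 further transcription factors 11 had a row and 5 were tested; 0 were called at 2 dyne/cm2 and 1 at 80 dyne/cm2, with list medians of 0.35 and -0.20 on the log2 scale against 0.00 and -0.01 over all genes tested. The one called was PRRX1, a homeobox factor of mesenchymal cells, which fell at 80 dyne/cm2 (10.3 ± 10.3 CPM against 20.02 ± 12.6 in set 2, log2 fold change -1.22, SE 0.20, adjusted p = 0.0147). PRRX1 was higher at 2 dyne/cm2 in 3 of 3 donors, by 0.94 on the log2 scale (SE 0.18, adjusted p = 0.0238), under the 2-fold threshold. SNAI3, GSC and FOXQ1 of this list were at 3 counts or fewer in every library.

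Of 16 mesenchymal structural and matrix genes 12 were tested, and at 2 dyne/cm2 1 rose and 2 fell (median 0.63). COL3A1, a fibrillar collagen, had 780 ± 398 CPM at 2 dyne/cm2 against 182 ± 38.5 in set 1 (log2 fold change 1.97, SE 0.24, adjusted p = 0.00905). S100A4, a calcium-binding protein also called fibroblast-specific protein, fell from 87.6 ± 105 to 1.95 ± 1.07 CPM (-4.75, SE 0.79, adjusted p = 0.0174). ITGA5, the alpha chain of a fibronectin receptor, fell by 1.22 on the log2 scale (SE 0.15, adjusted p = 0.00936), while its log2 fold change against set 2 was -0.66 and not called. At 80 dyne/cm2, FN1 fell by 2.01 (SE 0.28, adjusted p = 0.00806) and COL3A1 by 1.90 (SE 0.35, adjusted p = 0.0203), and S100A4 rose by 1.03 (SE 0.12, adjusted p = 0.00486), with a list median of -0.55. So the list held genes of both directions at each shear stress. Without the replicate block, COL3A1, S100A4 and ITGA5 were called at 2 dyne/cm2 as well.

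Among 6 further genes of the platelet-derived growth factor system, all tested, 2 ligands rose at 2 dyne/cm2 (list median 0.27) and 0 were called at 80 dyne/cm2 (-0.30). PDGFB, whose protein binds both receptors, had 275 ± 55.4 CPM at 2 dyne/cm2 against 95.9 ± 39.9 in set 1 (log2 fold change 1.598, SE 0.34, adjusted p = 0.0296), and was called without the replicate block and against set 2. PDGFC, a ligand of the alpha receptor, rose by 1.09 (SE 0.24, adjusted p = 0.0317), with groups that overlap between 11.3 and 225 CPM at 2 dyne/cm2 and 6.64 and 67.4 CPM in set 1. The call on PDGFC was lost without the replicate block (adjusted p = 0.447) and against set 2, where the change was under 2-fold.

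Of 18 genes of the TGF-beta pathway and its targets, all tested, 1 rose and 1 fell at 2 dyne/cm2 (median -0.23), and 0 were called at 80 dyne/cm2 (median -0.02). CCN2, which encodes connective tissue growth factor, rose from 1256 ± 438 to 4916 ± 1081 CPM (log2 fold change 2.01, SE 0.31, adjusted p = 0.0147). LTBP1, which binds latent TGF-beta in the matrix, fell from 638 ± 260 to 188 ± 67.6 CPM (log2 fold change -1.71, SE 0.17, adjusted p = 0.00660).

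**Figure D3:**
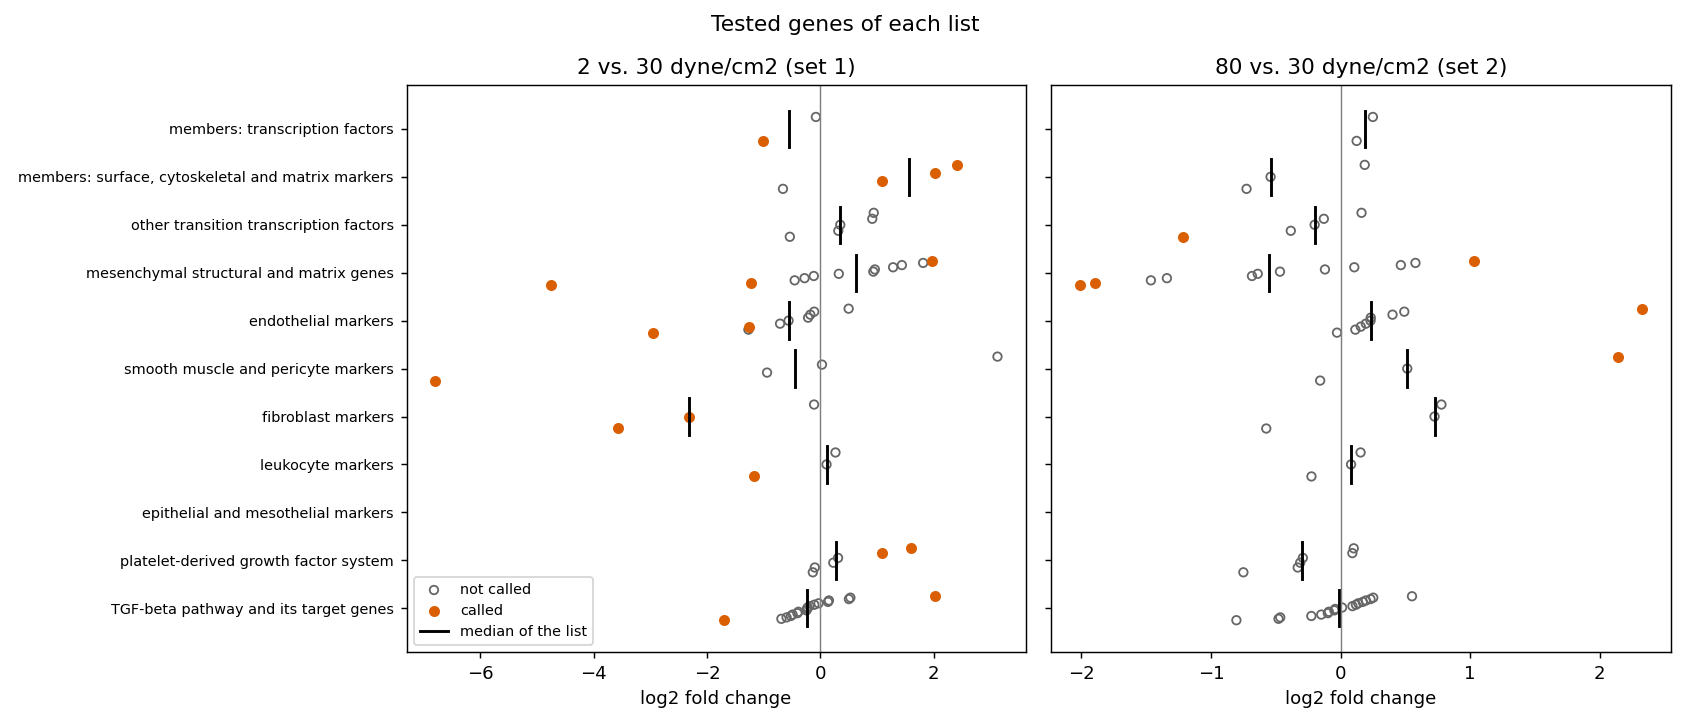
Log2 fold changes of the tested genes of each list at 2 vs. 30 dyne/cm2 (left) and 80 vs. 30 dyne/cm2 (right), on horizontal axes of different range. Each point is 1 gene, filled where called, and the bar is the list's median; the 3 filled surface and matrix members on the left are PDGFRA, TGFBI and PDGFRB, the last tested because it was high at 2 dyne/cm2, and PDGFRA is missing on the right because it was too low there to pass the filter, while the fitted value of CSPG4 at the far left is no bound, since its reads were at 3 counts or fewer at 2 dyne/cm2.

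Markers of endothelium and of other cell types were measured beside these genes. All 9 endothelial markers with a row were tested, and their summed level was 4905 to 5871 CPM at 2 dyne/cm2, 6953 to 8055 in set 1, 6606 to 7717 in set 2 and 8520 to 8731 at 80 dyne/cm2. The largest parts of this sum were PECAM1 (mean 1960 CPM at 2 dyne/cm2, 3222 in set 1) and CDH5 (1695 and 1841). At 2 dyne/cm2, 8 of the 9 had a negative log2 fold change and 1 a positive one, and ROBO4 had a mean of 236 CPM against 169 in set 1. TEK, the angiopoietin receptor Tie2, fell at 2 dyne/cm2 from 499 ± 50.2 to 65.5 ± 19.3 CPM (log2 fold change -2.95, SE 0.24, adjusted p = 0.00479). EMCN, the endothelial sialomucin endomucin, fell by 1.25 at 2 dyne/cm2 (SE 0.28, adjusted p = 0.0341) and rose by 2.33 at 80 dyne/cm2 (SE 0.35, adjusted p = 0.0112). The list medians were -0.56 and 0.23, with 2 genes lower and 0 higher at 2 dyne/cm2, and 1 higher and 0 lower at 80 dyne/cm2. Neither call on EMCN held without the replicate block or against the other control set.

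Smooth muscle and pericyte markers summed to 72.4 to 89.5 CPM at 2 dyne/cm2 and 63.0 to 92.8 CPM in set 1, and nearly all of this sum was SMTN (73.4 ± 8.97 and 73.3 ± 13.8 CPM), so it says little of the other markers. Markers of the list went in both directions at 2 dyne/cm2, and the genes named in the next sentences beside CSPG4 were chosen after their values were seen. MYOCD, a coactivator of smooth muscle genes, had 4.03 to 5.32 CPM at 2 dyne/cm2 and 0.060 to 1.78 CPM in set 1, higher in 3 of 3 donors with no overlap (log2 fold change 3.13, SE 0.88, adjusted p = 0.0571). Of all genes tested, 17.9% were higher there without overlap. NOTCH3, a receptor of mural cells, had 0.874 to 1.82 CPM against 0.330 to 0.472 CPM, also without overlap, and did not pass the filter. Mean levels of TAGLN, MYH11 and ACTA2 were at most 0.562 CPM in these groups and higher at 2 dyne/cm2, with groups that overlap. LMOD1 was lower in 3 of 3 donors (log2 fold change -0.94, SE 0.26, adjusted p = 0.0535). DES, RGS5, KCNJ8 and ABCC9 of these 13 genes were at 3 counts or fewer in every library. CSPG4, a proteoglycan of pericytes, had 0 or 1 count at 2 dyne/cm2 and 43 to 189 counts in set 1, at least 32.6-fold lower against a floor of 3 counts per library. At 80 dyne/cm2, CSPG4 rose by 2.14 on the log2 scale against set 2 (SE 0.29, adjusted p = 0.00792), while against set 1 the value was 0.55 (adjusted p = 0.403). Of 4 tested markers 0 rose and 1 fell at 2 dyne/cm2, and of 3 tested at 80 dyne/cm2 1 rose and 0 fell. The one that fell, CSPG4, passed the filter at 2 dyne/cm2 through set 1 alone, where it was high. MYOCD passed mainly through 2 dyne/cm2, and CSPG4 at 80 dyne/cm2 mainly through that group. These counts therefore cannot be read as a result about the markers. Fibroblast markers summed to 1.88 to 16.1 CPM at 2 dyne/cm2, 10.4 to 47.4 in set 1, 8.80 to 57.1 in set 2 and 24.4 to 36.7 at 80 dyne/cm2. Of 3 tested fibroblast markers, COL6A1 (a collagen chain, log2 fold change -2.31, SE 0.39, adjusted p = 0.0180) and PI16 (-3.57, SE 0.54, adjusted p = 0.0143) fell at 2 dyne/cm2, and 0 were called at 80 dyne/cm2. Both would pass the filter through set 1, where they were high, so this count carries the same limit. The call on COL6A1 was lost without the replicate block (adjusted p = 0.0906). DCN and LUM, proteoglycans of fibroblasts named after their values were seen, did not follow. DCN had 0.627 to 4.55 CPM at 2 dyne/cm2 and 0.240 to 0.446 CPM in set 1, higher in 3 of 3 donors with no overlap, and did not pass the filter. LUM had 6.12 ± 5.34 and 7.32 ± 7.93 CPM (log2 fold change -0.11, SE 0.25, adjusted p = 0.763). DPT and MFAP5 were at 3 counts or fewer in every library.

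Leukocyte markers summed to 11.6 to 15.9 CPM at 2 dyne/cm2 and 17.8 to 27.4 CPM in set 1, with PTPRC, CD3E and LYZ at 3 counts or fewer in every library. Of 3 tested leukocyte markers, CD68, which encodes a lysosomal protein, fell at 2 dyne/cm2 (log2 fold change -1.17, SE 0.15, adjusted p = 0.00961), and 0 were called at 80 dyne/cm2. The lower sum lay in CD68, with 4.83 to 7.92 CPM at 2 dyne/cm2 and 13.1 to 18.7 CPM in set 1. The other tested leukocyte markers had log2 fold changes of 0.11 (CD14, adjusted p = 0.798) and 0.27 (CD79A, adjusted p = 0.325). Epithelial and mesothelial markers summed to no more than 0.226 CPM in any library, and 0 of 5 with a row passed the filter. At 80 dyne/cm2, 0 genes of any list were called without the replicate block, and against set 1 the calls on PRRX1, S100A4, FN1 and CSPG4 were lost, whereas COL3A1 was called. At 2 dyne/cm2, MYOCD, NOTCH3 and DCN were higher, as PDGFRA, PDGFRB and TGFBI were. CSPG4, LMOD1, COL6A1 and PI16 of the same marker lists were lower. The part of other cell types in the values of PDGFRA, PDGFRB and TGFBI was not tested.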

How the data were processed

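The deposited table holds raw counts of reads per gene, with no normalization by the authors, who aligned single-end reads (STAR 2.4, Sscrofa11.1, CASAVA 1.8.2 upstream), dropped those with more than one location and ran featureCounts 1.4.6; the strand setting is not given in the sources used here. Symbols were found for 14572 genes (68.9%), and positions come from RefSeq on Sscrofa11.1. Tests used edgeR 4.0.16 in R 4.3.3 (TMM, quasi-likelihood test, donor as a block, at least 1 CPM in 3 libraries, Benjamini-Hochberg adjustment), and a standard error is the log2 fold change divided by the square root of F. Alternatives used DESeq2 1.42.0 and other settings. The procedure was tested on simulated data. The numbers 1 to 3 each stand for 1 donor in the labels. After removal of condition means, the 18 same-number pairs of libraries had correlations of 0.625 to 0.868 over 11267 genes. The 36 pairs that differed in both number and group had -0.554 to -0.174, but removing the mean of 3 libraries itself pushes these values down. Within each group, no pair of libraries agreed within sampling noise, and pairs across groups were not compared in this way. The members, lists, tests and rule for naming genes were chosen with earlier results of these data known. The rule takes all members, called genes of each list (at most 3 per comparison, by size) and the 3 genes most correlated with each member that passed the filter in both comparisons. In fits with the donor as a term, the p-values rest on how far the change within a donor varied over the 3 donors. For each gene, edgeR moderates this spread with that of all genes tested. The model of 12 libraries draws on the spread in all its groups.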

Additional observations from a re-analysis of the deposited data

Results flagged for a closer look

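The responses at 80 and 2 dyne/cm2 differed for 5 of 6 members tested, against 37.1% of 11568 genes. The test took 80 dyne/cm2 against set 2 minus 2 dyne/cm2 against set 1 (log2, edgeR quasi-likelihood test with the donor as a term). Without the donor term, PDGFRA was the 1 member called. The slide, the seeding density and the control set change together with the shear stress in this contrast, and their part in it cannot be told apart. The difference was 1.29 for SNAI1, 0.85 for VIM, -2.58 for PDGFRA, -2.96 for PDGFRB and -2.80 for TGFBI. At 2 dyne/cm2 the changes of PDGFRA, PDGFRB and TGFBI were positive and those of SNAI1 and VIM negative.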

How the results depend on the processing

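With the replicate block kept, 4 members were called at 2 dyne/cm2 under relative log expression normalization, library totals, DESeq2, the likelihood ratio test, no filter and all 12 libraries in 1 fit. Without the replicate block 0 members and 635 genes were called at 2 dyne/cm2 (643 genes and 0 members also without a filter), 0 genes at 80 dyne/cm2 with or without a filter, 0 between the control sets with or without a filter, and 1746 genes and 1 member for the difference (1505 and 1 also without a filter). The fits without both the block and the filter, and those with library totals, were chosen after seeing the data. Against the other control set, 2 members were called at 2 dyne/cm2 and 24 genes at 80 dyne/cm2. With both sets as control, 84 genes and 1 member (PDGFRA) were called at 80 dyne/cm2. The sign turned with the control set for ZEB1 at 2 dyne/cm2 (0.27 against the other set, 0.083 against both) and at 80 dyne/cm2 (-0.23 and -0.057), and for SNAI1 at 80 dyne/cm2 (-0.56 and -0.21). At 80 dyne/cm2, 2 members (SNAI2 and PDGFRA) were called with no filter and with at least 10 counts in every library, and 136 genes and 1 member (PDGFRA) with all 12 libraries in 1 fit. Between the control sets DESeq2 called 66 genes, the likelihood ratio test 90, no filter 46 and the fit of all 12 libraries 0. Leaving out 1 replicate gave 1 to 4 members at 2 dyne/cm2, 132 to 286 genes at 80 dyne/cm2, 0 to 62 genes and 0 to 1 members between the sets (SNAI1, -1.10, adjusted p = 0.0449 without replicate 2), and 1949 to 3299 genes and 3 to 5 members for the difference. The lowest of these were without replicate 1 for the members at 2 dyne/cm2, without replicate 2 for the genes at 80 dyne/cm2, and without replicate 3 for the difference. The cause of these changes was not tested. Low counts limit what can be said of SNAI2, PDGFRA, PDGFRB and CDH2.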
